A study of Mus musculus with 4 samples.

Results

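Genes for the storage and breakdown of glycogen were followed in C2C12 cells, a permanent mouse myoblast line whose cells withdraw from the cycle and form myotubes in low serum. The set was given by name and holds 9 genes: Pygm, Pygb, Pygl, Gys1, Gbe1, Phka1, Phkg1, Ugp2 and Gyg. Every probe set with exactly 1 of these symbols was taken, which gave 18 probe sets of 34945 with a single symbol, for 9 of 18193 genes. Cells of both groups carried a stably integrated plasmid under 750 µg/mL hygromycin B during growth in 10% fetal bovine serum. The plasmid encoded a short hairpin RNA that was non-targeting (shControl, 2 arrays) or aimed at LSD1 (shLSD1, 2 arrays). RNA was taken 48 hours after the change to 2% horse serum, with 25 mM glucose in both media. LSD1, the product of Kdm1a, is a demethylase of histone H3. The labels do not say how many separate selections, clones or cultures the arrays come from, so the p-values rest on an array-to-array spread that may be technical, and selection and knockdown cannot be told apart.

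Glycogen is the branched glucose polymer that muscle keeps as its local fuel store. Glycogenin (Gyg) primes the particle, UDP-glucose pyrophosphorylase (Ugp2) makes the activated glucose donor, glycogen synthase (Gys1 in muscle) extends the chains and the branching enzyme (Gbe1) adds branch points. Glycogen phosphorylase releases glucose 1-phosphate from the chains and exists as a muscle (Pygm), a brain (Pygb) and a liver (Pygl) isoform, each named for the tissue where it prevails. Pygb is the form of fetal and many adult tissues, and in muscle Pygm becomes the prevailing form as fibres mature. Phosphorylase kinase, with catalytic (Phkg1 in muscle) and regulatory (Phka1 in muscle) subunits, switches phosphorylase on when calcium or adrenaline signals rise.

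The MAS5 signal, given for 45101 probe sets an array, is a brightness that can be compared between arrays for 1 probe set but not between probe sets. Precision is limited by the number of arrays. The targeted gene had signals of 4603 and 4588 in the shControl arrays and 922 and 1035 in the shLSD1 arrays. Kdm1a thus fell to 21.3% of control (log2 fold change -2.23, SE 0.07, n = 2 and 2; limma adjusted p = 2.89e-05). Over all 10879 genes bright enough to test, with a mean log2 signal above 6.03, 952 rose (8.75%) and 771 fell (7.09%), or 15.8% in either direction, at a limma adjusted p under 0.05. The total called was 1723, and it was 625 without shControl replicate 1 and 591 without shControl replicate 2. Of the skeletal muscle markers that check the label of differentiating myoblasts, 10 of 10 were above this filter. Of 20 markers of adipocytes, hepatocytes, neural cells and macrophages, 19 had a usable probe set and 1 passed the filter, Csf1r, named after its value was seen, which was not called. Their summed signal was 514 and 578 in the shControl arrays and 495 and 528 in the shLSD1 arrays.

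In the knockdown, the muscle phosphorylase gene Pygm fell to 62.1% of control, the brain-type phosphorylase gene Pygb rose to 139%, and the muscle glycogen synthase gene Gys1 fell to 76.0%. The other 4 tested members did not pass the test, and Pygl and Phkg1 were too dim to be tested. So 1 of 7 tested members rose, where 8.75% of all tested genes rose, and 2 fell, where 7.09% did. Without shControl replicate 1 or without shControl replicate 2 the count was 1, Pygm. The 7 tested members had a median log2 fold change of 0.05, against 0.00 over all genes tested. All 7 lay above the filter in both groups. In 5 of the 7 the signals of the 2 groups did not overlap, which was also so for 60.1% of all tested genes.

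**Figure D1:**
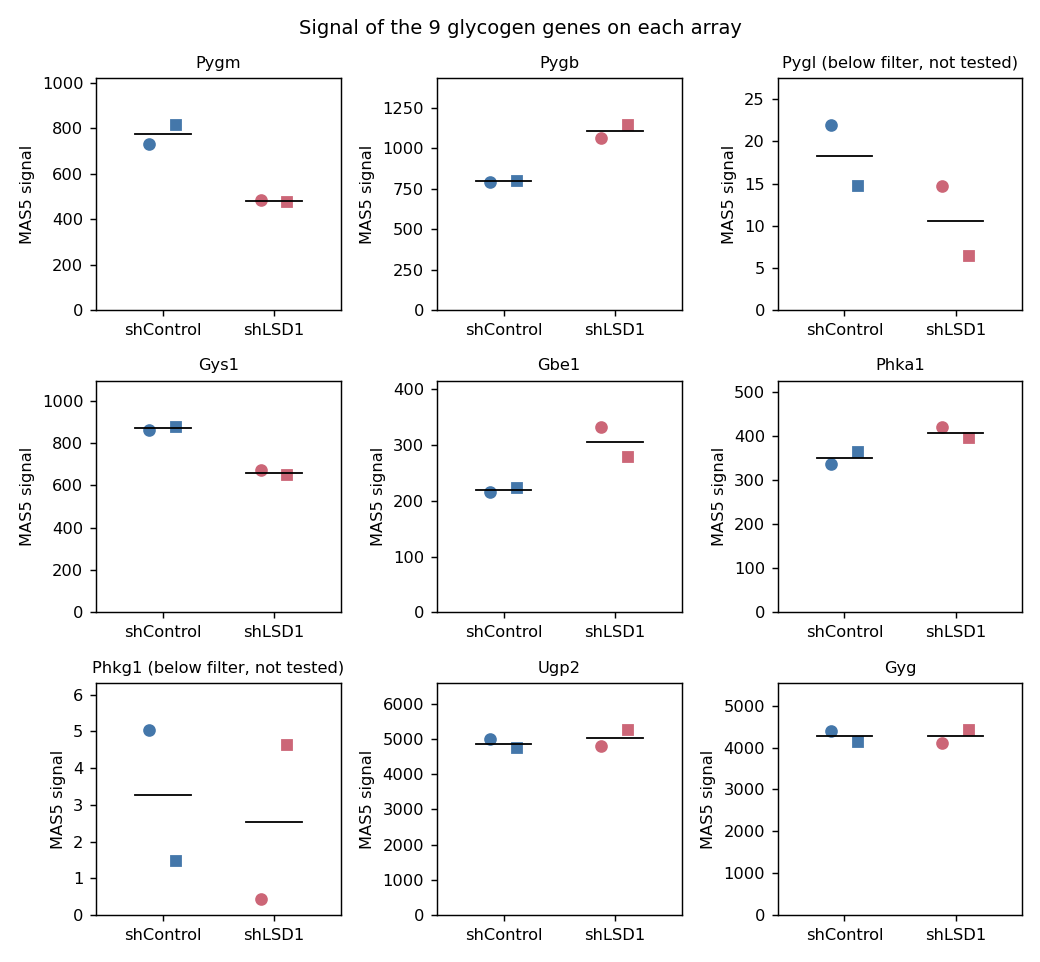
MAS5 signal (y axis, linear, from 0) of each of the 9 glycogen genes on the 2 shControl arrays (blue) and the 2 shLSD1 arrays (red), with circles for replicate 1, squares for replicate 2 and a black line at each group mean; each panel has its own scale. Only 1 representative probe set is drawn per gene. Of these, Pygm and Gys1 are lower and Pygb, Gbe1 and Phka1 higher on both shLSD1 arrays. Ugp2 and Gyg overlap, and Pygl and Phkg1 lie at signals under 22. The Phka1 probe sets not drawn measured log2 fold changes of -0.44 and -0.02.

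The sequences upstream of the 3 genes that passed the test are shown because E-boxes (CANNTG, read on both strands) are the sites bound by the MyoD family of myogenic factors, which drive muscle gene expression during differentiation. The windows are the 250 bases before the RefSeq start of each gene in build GRCm38.p6: chr19:6384158-6384407 on the plus strand for Pygm, chr7:45434589-45434838 on the plus strand for Gys1 and chr2:150786546-150786795 on the plus strand for Pygb. Capitals mark E-boxes.

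Pygm: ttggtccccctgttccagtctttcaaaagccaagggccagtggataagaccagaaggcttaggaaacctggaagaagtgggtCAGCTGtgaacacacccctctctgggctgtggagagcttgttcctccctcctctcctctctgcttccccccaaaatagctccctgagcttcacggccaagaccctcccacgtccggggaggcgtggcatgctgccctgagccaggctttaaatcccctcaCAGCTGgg

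Gys1: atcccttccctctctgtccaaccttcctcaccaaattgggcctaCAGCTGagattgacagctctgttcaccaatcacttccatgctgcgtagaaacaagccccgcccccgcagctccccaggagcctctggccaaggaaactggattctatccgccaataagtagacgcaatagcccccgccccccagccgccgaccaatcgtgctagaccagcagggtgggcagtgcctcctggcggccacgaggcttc

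Pygb: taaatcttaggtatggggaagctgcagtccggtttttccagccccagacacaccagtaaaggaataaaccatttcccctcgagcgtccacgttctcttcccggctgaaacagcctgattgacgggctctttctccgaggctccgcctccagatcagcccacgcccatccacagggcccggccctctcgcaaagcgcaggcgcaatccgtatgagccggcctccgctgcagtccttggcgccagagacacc

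Pygm, which fell, held 2 E-boxes, beginning 168 and 8 bases before the start, and both read CAGCTG, a form of CANNTG that MyoD and myogenin bind. Gys1, which fell, held 1, also CAGCTG, beginning 206 bases before the start. No E-box lay in the window of Pygb, which rose, or of Pygl, which was not tested. Among the members not called, Gbe1, at 0.47, and Phka1 held 2 each, and Gyg and each Ugp2 window held 1. Phkg1, which was not tested, held 5. Across 32851 RefSeq promoter windows of the same length, 66.2% held at least 1 CANNTG and 13% at least 1 CAGCTG. The 9 members have 10 such windows, since Ugp2 has 2 starts, and 8 of the 10 held CANNTG and 4 held CAGCTG, those of Pygm, Gys1, Phka1 and 1 of Ugp2. The consensus motif of MEF2, another muscle factor, was in 0 of the 10 windows and in 2.92% of all windows. These matches describe letters in the windows and were not tested as binding sites.

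The phosphorylase genes moved in opposite directions. Pygm, whose loss in people causes McArdle disease, had signals of 733 and 816 in the shControl arrays and 484 and 477 in the shLSD1 arrays. Both knockdown arrays lay below both controls. The mean signal was 775 ± 58.8 in shControl and 481 ± 5.41 in shLSD1 (SD, n = 2 each). The log2 change was -0.69 (SE 0.10, 95% interval -0.91 to -0.46, limma adjusted p = 3.38e-03), and 266 tested genes had a more negative value. Its call held under all 14 alternatives of the gene-level fit, with adjusted p from 3.49e-04 to 0.0472 (limma). In the fit of every probe set it was not called without shControl replicate 2 or without the intensity trend.

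Pygb had signals of 793 and 798 in the shControl arrays and 1063 and 1145 in the shLSD1 arrays. Both knockdown arrays lay above both controls. The mean was 795 ± 3.34 in shControl and 1104 ± 57.3 in shLSD1 (SD, n = 2 each), a log2 change of 0.47 (SE 0.08, 95% interval 0.29 to 0.65, limma adjusted p = 7.00e-03). The call was lost without shControl replicate 1 (limma adjusted p = 0.0584) and without shControl replicate 2 (limma adjusted p = 0.0594), while the value stayed at 0.47 and 0.48. Over its 14 alternatives the limma adjusted p ran from 1.44e-03 to 0.0594.

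The unequal change of the 2 isoforms can be read within each array, where the bias of a whole array cancels. The log2 signal of Pygb minus that of Pygm was 0.11 and -0.03 in the shControl arrays and 1.13 and 1.26 in the shLSD1 arrays. The shift was 1.16 on the log2 scale, with no overlap between the groups. That lack of overlap follows from the separate values, since Pygb was higher and Pygm lower on both knockdown arrays. An exact two-sided permutation test over the 4 arrays gave p = 0.333, the smallest that this test can give with 2 arrays against 2, so it cannot reach a threshold of 0.05 here.

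The liver isoform gene Pygl was at background. Its signals were 22.0 and 14.7 in the shControl arrays and 14.7 and 6.46 in the shLSD1 arrays, all under the filter signal of 65.4. The groups overlapped, and no fold change is given for it.

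Among the synthesis genes, Gys1 fell and the branching, priming and donor genes did not pass the test. Gys1 had signals of 863 and 875 in the shControl arrays and 672 and 648 in the shLSD1 arrays, without overlap. The mean was 869 ± 8.05 in shControl and 660 ± 16.8 in shLSD1 (SD, n = 2 each), a log2 change of -0.40 (SE 0.08, 95% interval -0.58 to -0.21, limma adjusted p = 0.0153). Its other probe set read 268 and 320 against 261 and 200, or -0.36 (SE 0.18, limma adjusted p = 0.246 in the fit of every probe set). The 2 probe sets thus had the same sign, and the dimmer was not called. The call of Gys1 was lost without shControl replicate 1 (limma adjusted p = 0.105), without shControl replicate 2 (0.116), without the intensity trend (0.0519) and with both probe sets averaged (0.112). Over its 14 alternatives the limma adjusted p ran from 8.62e-03 to 0.116.

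Gbe1, which places the branch points that make glycogen soluble, had signals of 217 and 223 in the shControl arrays and 332 and 278 in the shLSD1 arrays. The groups did not overlap, and the shLSD1 arrays differed from each other more than the controls did. The log2 change was 0.47 (SE 0.15, 95% interval 0.12 to 0.81, limma adjusted p = 0.0735), and it was not called. Without shLSD1 replicate 2 it measured 0.59 and was called (limma adjusted p = 0.0394), in a range of 0.0394 to 0.269 over 13 alternatives.

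Neither Ugp2 nor Gyg passed the test, and their intervals were the narrowest among the 7 tested members. Ugp2, which makes the UDP-glucose that synthase uses, had signals of 4998 and 4734 in the shControl arrays and 4807 and 5268 in the shLSD1 arrays. The groups overlapped, and the log2 fold change was 0.05 (SE 0.06, 95% interval -0.09 to 0.19, limma adjusted p = 0.637). All 5 Ugp2 probe sets passed the filter, and their values ran from -0.003 to 0.09 with none called, although 2 of the 5, at 0.09 and 0.07, had shLSD1 arrays above both controls. Gyg, the self-glucosylating primer of the particle, had signals of 4404 and 4138 in the shControl arrays and 4104 and 4426 in the shLSD1 arrays. The groups overlapped, and the log2 fold change was -0.002 (SE 0.06, 95% interval -0.14 to 0.14, limma adjusted p = 0.986). Its other probe set measured 0.11 (SE 0.06, limma adjusted p = 0.294 in the fit of every probe set).

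The muscle subunit genes of phosphorylase kinase gave no call. Phka1, the muscle alpha subunit, had 3 probe sets above the filter, and they disagreed. The brightest read 337 and 363 in the shControl arrays and 420 and 395 in the shLSD1 arrays, higher in both knockdown arrays, with a log2 change of 0.22 (SE 0.11, 95% interval -0.05 to 0.49, limma adjusted p = 0.240). The next read 349 and 401 against 273 and 278, lower in both knockdown arrays, at -0.44 (SE 0.13, limma adjusted p = 0.0686 in the fit of every probe set). The dimmest read 191 and 187 against 186 and 186, at -0.02 (SE 0.16, limma adjusted p = 0.954 in that fit).

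Within each array, the log2 signal of the first Phka1 probe set minus that of the second was -0.05 and -0.15 in shControl and 0.62 and 0.51 in shLSD1. That shift of 0.66 did not overlap between the groups (exact two-sided permutation p = 0.333, the smallest possible here). The lack of overlap follows from the separate values, since the first was higher and the second lower on both knockdown arrays. A direction for Phka1 therefore depends on the probe set, and the mean of the 3 was -0.08. Phkg1, the catalytic subunit of muscle, was near the lowest signals of the arrays, with 5.05 and 1.48 in shControl and 0.43 and 4.62 in shLSD1. Its other probe set, of the cross-hybridising type, read between 4.24 and 18.6, and neither was tested.

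**Figure D2:**
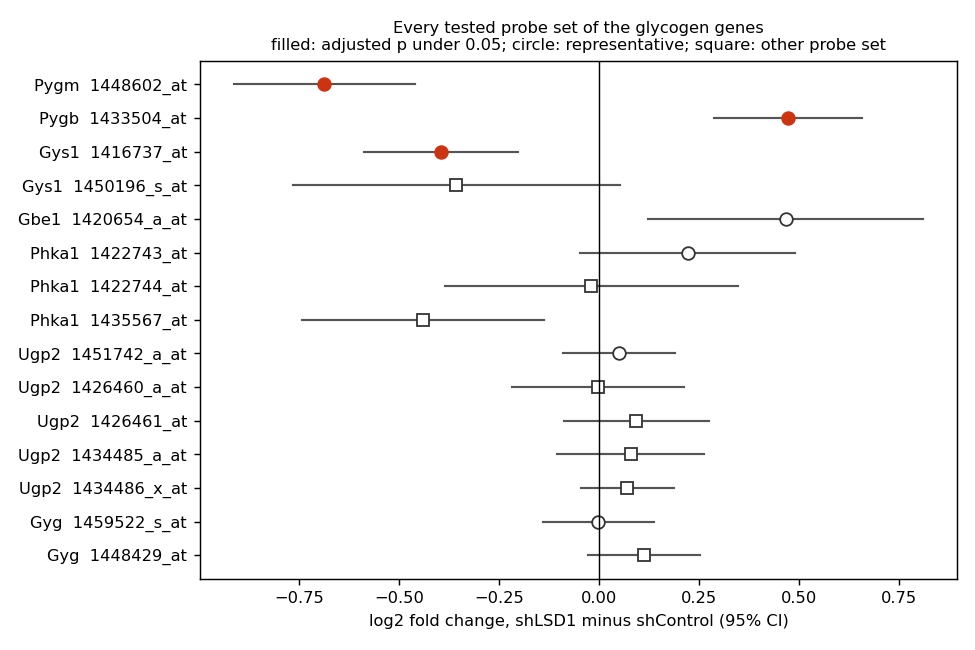
Log2 fold change (x axis, shLSD1 minus shControl) with its 95% interval for each of the 15 tested probe sets of the glycogen genes, from the fit of every probe set; circles are the gene's representative, squares its other probe sets, and filled red symbols passed a limma adjusted p of 0.05. Pygm (-0.69), Pygb (0.47) and 1 of 2 Gys1 probe sets (-0.40) are filled, the Phka1 probe sets lie on both sides of 0, and the 5 Ugp2 probe sets sit between -0.003 and 0.09.

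In the fit that takes every probe set as a feature of its own, 3 of 15 tested member probe sets were called, against 11.8% called among 19958 probe sets. They were those of Pygm, Pygb and Gys1 (limma adjusted p = 3.96e-03, 8.73e-03 and 0.0199). The 5 Ugp2, 3 Phka1, 2 Gyg and 2 Gys1 probe sets share their gene's RNA and are not replicates of one another.

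**Figure D3:**
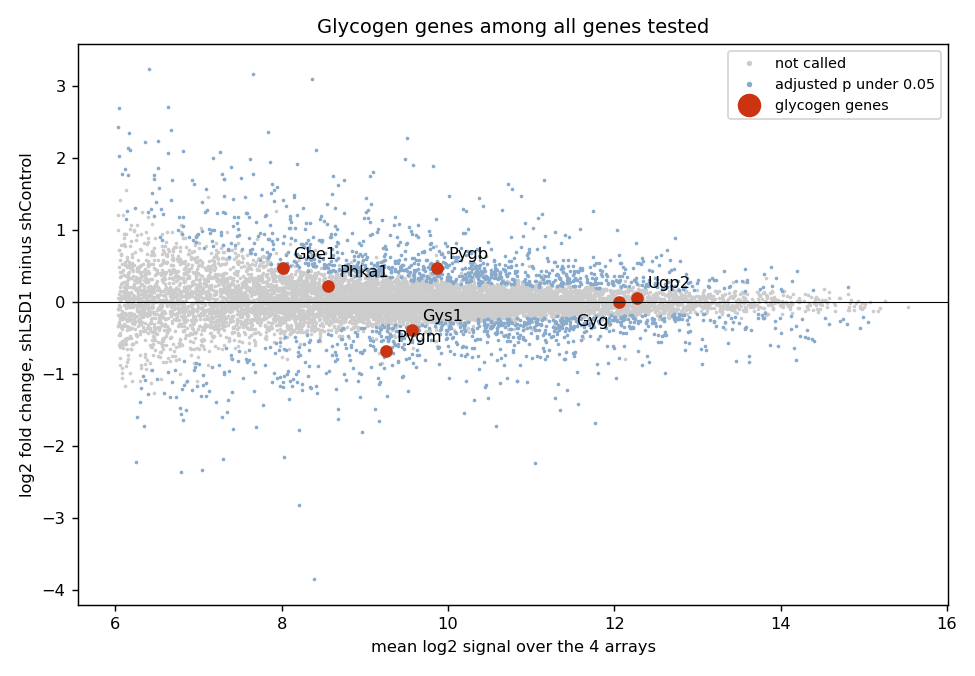
Log2 fold change (y axis, shLSD1 minus shControl) against the mean log2 signal over the 4 arrays (x axis) for the 10879 tested genes, in blue where the limma adjusted p was under 0.05 and grey otherwise, with the 7 tested glycogen genes in red. Pygm (-0.69) and Gys1 (-0.40) lie below 0 and Pygb (0.47) above it at mid signal. Some grey genes lie further from 0 than Gys1, such as Gsk3a (-0.50). Ugp2 and Gyg lie near the line at 0 at high signal.

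Markers of differentiation and of proliferation moved with the groups. Of 10 myotube markers, 8 fell, among them Actn2 to 41.8% and Ckm to 55.1% of control, and Myog, the factor of terminal differentiation, to 65.7%, while Des measured -0.09 on the log2 scale (limma adjusted p = 0.291). Their summed signal was 159002 and 156042 in the shControl arrays and 110519 and 121598 in the shLSD1 arrays, and none was at 0. Of 7 tested proliferation markers, 6 rose, with Ube2c the highest at 186% of control and the other called markers at 115% to 129%. The summed signal of the proliferation markers was 20480.2 and 20606 in shControl and 26054 and 25688 in shLSD1. Without the intensity trend 4 myotube markers and 1 proliferation marker were called, and 2 and 1 proliferation markers without shControl replicate 1 and without shControl replicate 2. The background for these counts is the 7.09% of all tested genes that fell and the 8.75% that rose. The part of either in the values of Pygm, Gys1 and Pygb was not tested, and fewer myotubes and less RNA per myotube cannot be told apart in bulk RNA.

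Other genes of glycogen metabolism moved both ways. Of 51 written in lists by role, 46 had a single-symbol probe set and 38 were tested, of which 3 rose and 4 fell, or 18.4% against the 15.8% of all genes tested. Their median log2 fold change was 0.03. The calls of Hk1, Pgm5 and Prkag3 remained without either shControl array and those of the other 4 did not, so the count was 3 in each of those fits. The count was 12 without shLSD1 replicate 2, and without the intensity trend 2 remained, Hk1 and Prkag3. The calmodulin genes, which encode the calcium-sensing subunit of phosphorylase kinase, lacked a single-symbol probe set.

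In glucose uptake and activation, 1 of 8 tested genes rose and 1 fell, where 8.75% of all tested genes rose and 7.09% fell. Hk1, a hexokinase that traps glucose as glucose 6-phosphate, had signals of 2229 and 2236 in shControl and 3252 and 3075 in shLSD1, a log2 change of 0.50 (SE 0.06, limma adjusted p = 1.46e-03). Its other probe set gave 0.65 (limma adjusted p = 0.0115 in the fit of every probe set), and both knockdown arrays were above both controls on each. The value of the muscle hexokinase gene Hk2 was 0.03 (SE 0.10, limma adjusted p = 0.854). The phosphoglucomutase genes, which link glucose 6-phosphate to glucose 1-phosphate, measured 0.05 for Pgm1 (limma adjusted p = 0.684) and 0.30 for Pgm2 (limma adjusted p = 0.0968). The gene that fell was Pgm5, with signals of 991 and 1020 against 579 and 418, or 48.9% of control (limma adjusted p = 3.63e-03). Pgm5 encodes a relative of phosphoglucomutase found at muscle cell junctions that is not known to act as the enzyme. Its call was lost without the intensity trend (limma adjusted p = 0.0556).

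Among the other subunits of phosphorylase kinase, 1 of 3 tested genes fell, where 7.09% of all tested genes did. Phkb, which encodes the beta regulatory subunit shared by muscle and liver, had signals of 1724 and 1570 in shControl and 1342 and 1215 in shLSD1, with no overlap. It fell by 0.37 (log2; SE 0.08, limma adjusted p = 0.0211), and this call was lost without the intensity trend (limma adjusted p = 0.105) as well as without either shControl array. For the liver and testis catalytic subunit gene Phkg2 the value was 0.19 (SE 0.12, limma adjusted p = 0.345), not a call.

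Of 4 tested genes for lysosomal breakdown and glucose release, 1 rose, where 8.75% of all tested genes did. Stbd1, whose product binds glycogen and tethers it to intracellular membranes, had signals of 1576 and 1566 in shControl and 2011 and 2228 in shLSD1. It rose by 0.43 (SE 0.07, limma adjusted p = 6.43e-03), and the call was lost without either shControl array, and also without the intensity trend (limma adjusted p = 0.0640). None of the 5 tested genes for protein phosphatase 1 and its glycogen-targeting subunits was called by limma, where 15.8% of all tested genes were. Ppp1cc, chosen after its value was seen, was the 1 at an unadjusted p under 0.05, at 0.15 (limma adjusted p = 0.0501). Among the alternatives that kept all 4 arrays, it was called with quantile normalization, log2(signal + 32), the stricter filter and the robust variance. It was not called with the replicate block, median centring, no filter, averaged probe sets, every probe set or no intensity trend. Its other probe set gave 0.17 (limma adjusted p = 0.122 in the fit of every probe set). Ppp1r3c, a glycogen-targeting subunit gene, was below the filter at 47.7 and 40.5 in shControl and 8.04 and 17.7 in shLSD1. Its other probe set, also below the filter, went the other way, at 4.98 and 5.91 in shControl and 8.48 and 16.5 in shLSD1. The liver synthase gene Gys2 and both Lafora disease genes were also below it.

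Of 15 tested genes for kinases that act on synthase or on phosphorylase kinase, 1 rose and 2 fell. Among all tested genes 8.75% rose and 7.09% fell. Prkag3 and Prkag2 encode regulatory gamma subunits of AMP-activated protein kinase, which binds glycogen and phosphorylates synthase, and Prkag3 is the form largely restricted to skeletal muscle. Prkag3 had signals of 1288 and 1356 in shControl and 834 and 817 in shLSD1, and it fell by 0.68 (SE 0.07, limma adjusted p = 1.20e-03). Prkag2 had signals of 179 and 183 in shControl and 402 and 275 in shLSD1, and it rose by 0.88 (SE 0.20, limma adjusted p = 0.0218). Each pair of knockdown arrays lay wholly on 1 side of its controls.

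The other 2 Prkag2 probe sets above the filter gave 0.91 (limma adjusted p = 8.80e-03) and 0.71 (limma adjusted p = 0.0723) in the fit of every probe set. The call of Prkag2 was lost without shLSD1 replicate 1 (0.60, limma adjusted p = 0.0625), without either shControl array, without the intensity trend and when its probe sets were averaged. The log2 signal of Prkag2 minus that of Prkag3 was -2.84 and -2.89 in the shControl arrays and -1.05 and -1.57 in the shLSD1 arrays. This shift of 1.55 follows from the rise of the first and the fall of the second (exact two-sided permutation p = 0.333, the smallest possible here). Akt2, the insulin-signalling kinase that restrains glycogen synthase kinase 3, had signals of 2162 and 2141 against 1671 and 1758 and fell by 0.33 (SE 0.06, limma adjusted p = 0.0107). Its other tested probe sets gave -0.25 and 0.02, neither called, and the mean of its probe sets gave -0.19 (limma adjusted p = 0.262). The call of Akt2 was also lost without either shControl array, and also without the intensity trend (limma adjusted p = 0.0738). Of the 2 forms of that kinase, Gsk3b measured -0.09 (SE 0.06, limma adjusted p = 0.335). Gsk3a, named after its value was seen, had signals of 3725 and 3794 in shControl and 2218 and 3168 in shLSD1, without overlap. Its value of -0.50 (SE 0.14) narrowly missed the threshold (limma adjusted p = 0.0513), and it was called with the replicate block, with quantile normalization, with median centring and without either shLSD1 array. Prkaca, a catalytic subunit of the kinase that adrenaline activates, is named after its values were seen, since its probe sets differed. Its representative gave -0.22 (limma adjusted p = 0.233) and a brighter one of the cross-hybridising type -0.40 (limma adjusted p = 3.16e-03 in the fit of every probe set).

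None of the 3 tested genes for insulin receptor and its substrates was called by limma, where 15.8% of all tested genes were. Irs1, named after its value was seen, was the 1 at an unadjusted p under 0.05, at 0.13.

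**Figure D4:**
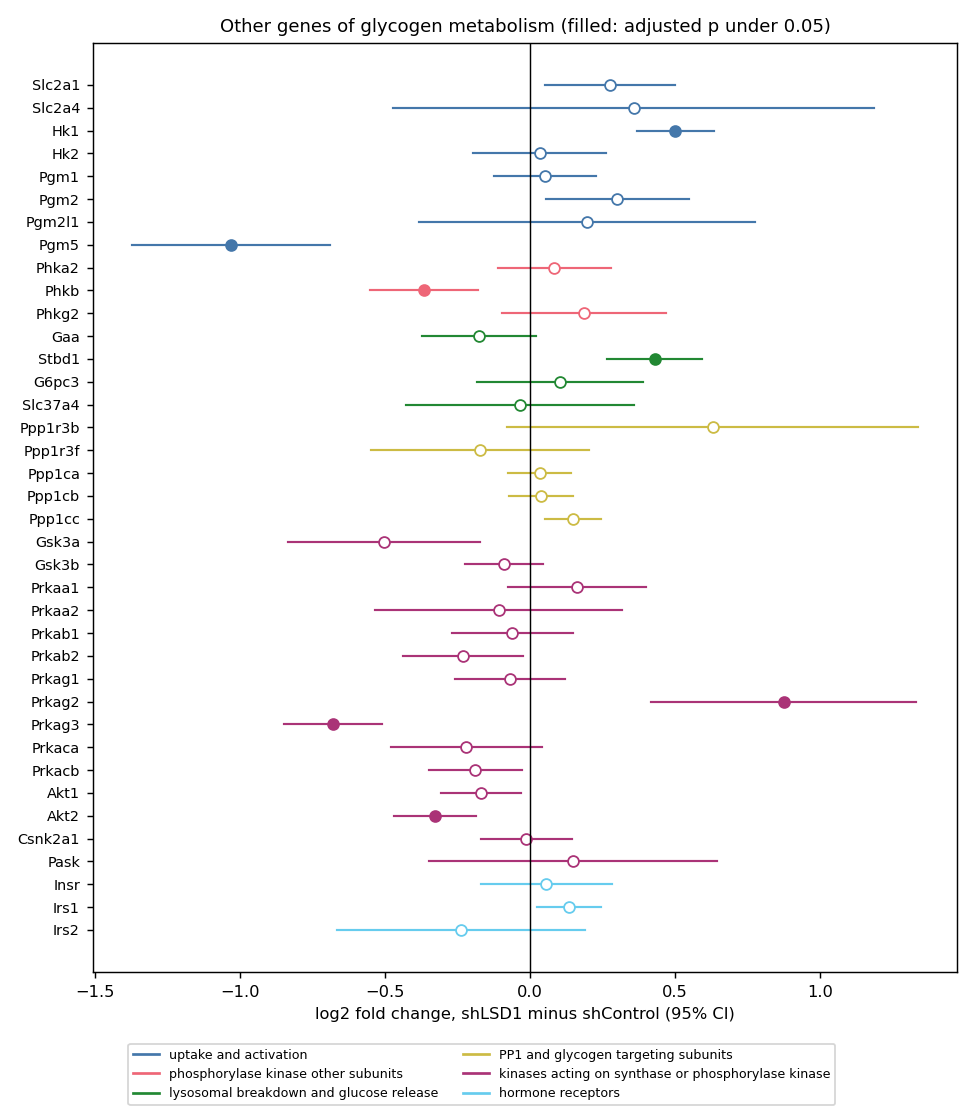
Log2 fold change (x axis, shLSD1 minus shControl) with its 95% interval for the 38 tested genes of glycogen metabolism outside the 9 members, coloured by role and filled where the limma adjusted p was under 0.05. Hk1, Stbd1 and Prkag2 are filled to the right of 0, and Pgm5, Phkb, Prkag3 and Akt2 to the left.

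**Figure D5:**
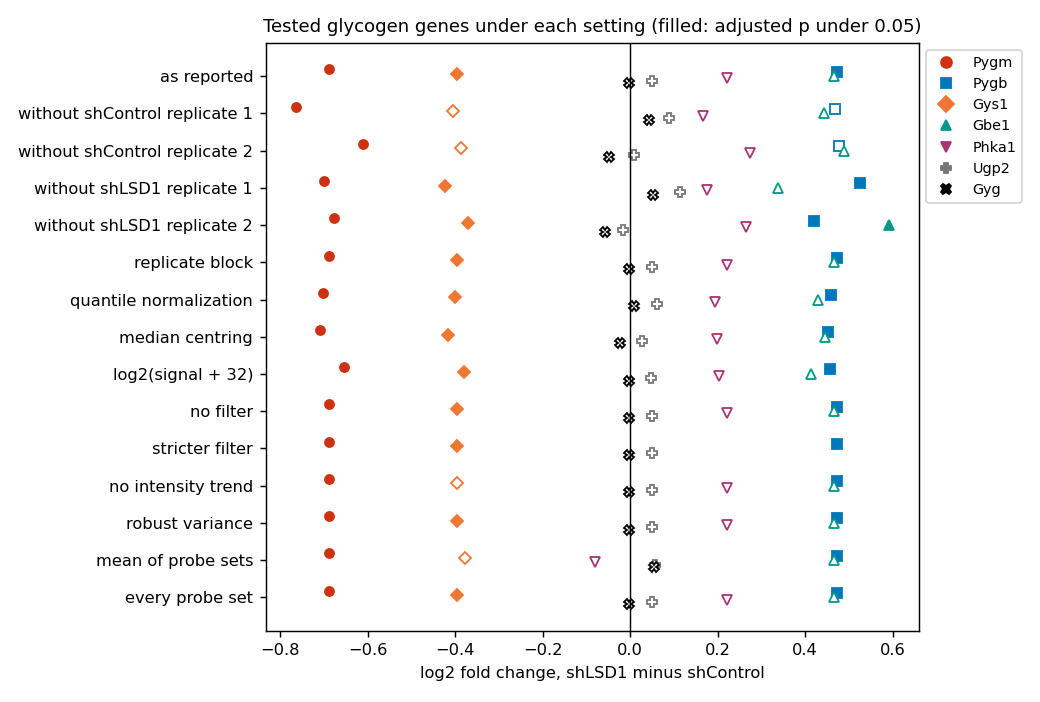
Log2 fold change (x axis, shLSD1 minus shControl) of the 7 tested glycogen genes in the reported fit and under each alternative (y axis), filled where the limma adjusted p was under 0.05. Pygm is filled in every line, Pygb is open without either shControl array, Gys1 is open in 4 lines, and Phka1 crosses 0 with the mean of its probe sets.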

How the data were processed

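The transcriptome was measured on 4 arrays, 2 shControl and 2 shLSD1, grouped by their labels. The deposited values are linear MAS5 signal intensities, 1 per probe set. The submitters' processing notes name MAS5 and Affymetrix Expression Console, with versions not given in the sources used here. With the top and bottom 2% trimmed, the mean signal of each array was 500.003, so 1 factor per array had been applied. A floor of 1 was set on the signals, and log2 was taken.

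Probe sets with exactly 1 gene symbol (34945 of 45101) were used. For each of 18193 genes, 1 representative was kept, avoiding the cross-hybridising _x_at type where another existed and then taking the brightest. The 10879 genes with a mean log2 signal above 6.03 (a signal of 65.4, the median of all probe sets) were tested with limma 3.58.1 in R 4.3.3 (lmFit and eBayes with an intensity trend, two-sided, Benjamini-Hochberg, threshold 0.05). A further limma fit took every single-symbol probe set above that filter, 19958 in number, as a feature of its own, and gives the p of any probe set that is not a gene's representative. Log2 fold changes are shLSD1 minus shControl, with 95% intervals.

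The members, the lists and the rule for named genes were chosen with earlier results of these data known. The rule names the 9 members with every probe set, Kdm1a, each gene of the other pathway lists that passed the test, 8 further genes of those lists, and up to 4 examples of the myotube and proliferation markers. Promoter windows are RefSeq's, build GRCm38.p6, and all 9 members matched. The reported fit was tested on simulated data, with fewer changed genes than were called here. It recovered 24 of 67 log2 changes of 0.5, 40 of 67 of 1 and 59 of 66 of 2, with 5 false calls. A gene that was not called may thus have changed. The alternatives were each array left out, a replicate block, median centring, quantile normalization, log2(signal + 32), a variance prior without the intensity trend or made robust, no filter or a stricter one (log2 8.91), averaged probe sets, and every probe set. The labels do not say whether the replicate numbers pair the arrays, and the reported fit did not pair them. Figures were drawn with matplotlib 3.10.9.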

Additional observations from a re-analysis of the deposited data

How the results depend on the processing

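The number of glycogen genes called, 3 as reported, ran from 1 to 4 when 1 array was left out, and Pygm was called in each of those fits. It was 3 with the replicate block, with quantile normalization, with median centring and with no filter, and 2 without the intensity trend or with averaged probe sets. Member probe sets called, 3 as reported, ran from 0 to 4 when 1 array was left out. They were 0 without the intensity trend, where limma gave 5 of 15 at an unadjusted p under 0.05; the 0 among the left-out arrays was without shControl replicate 2, with 4 at that level. The other pathway genes called, 7 as reported, ran from 3 to 12 when 1 array was left out and were 2 without the intensity trend. All genes called, 1723 as reported, ran from 591 to 2197 when 1 array was left out, and were 637 without the intensity trend and 901 with averaged probe sets. The cause of these shifts in counts was not tested. Phka1 changed sign when its probe sets, which disagree, were averaged (-0.080). Gyg, at -0.002, changed sign with quantile normalization (0.010) and with averaged probe sets (0.054), and ran from -0.057 to 0.052 when 1 array was left out. Ugp2 ran from -0.017 to 0.12 in those fits. Pygm, Pygb, Gys1, Gbe1 and Kdm1a kept their direction in every alternative that gave a value, and Kdm1a kept its call, from -2.37 to -2.15. Gbe1 and Phka1 had no value under the stricter filter. The replicate block changed no call of a member, and raised all genes called to 2220; arrays with the same number did not deviate together (correlation over genes 0.003). Signals near background limit Pygl and Phkg1, which with no filter had limma adjusted p of 0.617 and 0.926.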
